A study of Mus musculus with 8 samples.

Results

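The mitochondrial ribosomal protein genes were taken as all genes whose symbol begins with Mrpl or Mrps followed by a number, and 75 genes met this rule among the 20696 listed for long-term haematopoietic stem cells (LT-HSC) and multipotent progenitors (MPP) of the mouse. All 75 were listed for both populations, and all 75 passed the filter on low counts in every fit. They comprised 46 genes for large-subunit proteins, 25 for small-subunit proteins, 3 processed pseudogenes (Mrpl23-ps1, Mrpl48-ps and Mrps36-ps1) and Mrps36, whose product is now placed in the oxoglutarate dehydrogenase complex of the citric acid cycle. Mrps18a and Mrps30 are counted with the large subunit, where their products lie. Mrpl2, Mrpl17, Mrpl53, Mrps34 and the genes encoded in mitochondrial DNA were not analysed here.

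RNA was compared in 8 libraries, 2 in each of 4 groups: Tet1 KO LT-HSC, WT LT-HSC, Tet1 KO MPP and WT MPP. Tet1 encodes a dioxygenase that oxidises 5-methylcytosine in DNA. All groups came from mice that had received KO or WT bone marrow 20 weeks earlier, and the cells were flow sorted from bone marrow, with an age of 6 months in the growth protocol and a strain written as CD57BL/6. Libraries were made from poly(A) RNA of 10000 LT-HSC or 100000 MPP. The part of Tet1 that is removed, the sort gates, whether sorted cells were of donor or host origin, and whether the libraries of a group came from separate animals are not stated in the labels, so the p-values reflect the spread among the sampled libraries, and that spread may be purely technical.

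The mitochondrial ribosome, or mitoribosome, translates the few proteins encoded by mitochondrial DNA, all of them subunits of the oxidative phosphorylation complexes. Its rRNAs come from mitochondrial DNA, whereas every one of its proteins is encoded in the nucleus, made in the cytoplasm and imported. Some of these proteins descend from bacterial ribosomal proteins, and others exist only in mitochondria. Haematopoietic stem cells are known for low mitochondrial activity and for relying strongly on glycolysis, and oxidative metabolism increases as they turn into progenitors.

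The LT-HSC libraries held 5356505 and 5059917 counts in KO and 5479731 and 4976459 in WT, and the MPP libraries held 12504581 and 12400764 in KO and 11928659 and 12030265 in WT. The 75 genes took 0.218% and 0.196% of the counts in KO LT-HSC, 0.198% and 0.177% in WT LT-HSC, 0.187% and 0.176% in KO MPP and 0.202% and 0.198% in WT MPP. Tet1 itself had 336 and 379 counts in KO LT-HSC against 332 and 428 in WT LT-HSC, so its whole-gene count did not separate the genotypes there. In MPP it had 765 and 855 counts in KO libraries against 1207 and 1323 in WT libraries (log2 fold change -0.62, edgeR quasi-likelihood adjusted p = 0.0282). Of the LT-HSC markers, 6 of 8 were higher and 0 lower in WT LT-HSC than in WT MPP, and 3 of 3 MPP markers were lower.

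Markers of the sorted cells and of other cells moved with genotype. LT-HSC markers summed to 1512 and 1548 normalized CPM (counts scaled to library size) in KO LT-HSC against 1946 and 1965 in WT LT-HSC (0 of 8 higher, 2 lower), and 3 of 3 MPP markers were called there, 1 higher and 2 lower. In KO against WT LT-HSC, erythroid markers summed to 4780 and 4049 CPM in KO against 1360 and 1159 in WT, with 9 of 9 higher; sums are over markers listed for both populations. Stromal markers summed to 617 and 442 CPM in KO against 25.9 and 22.7 in WT with 7 of 7 tested markers higher, and Bglap and Cxcl12 were at 0 counts in both WT libraries. Granulocyte and monocyte markers summed to 40.3 and 41.7 CPM in KO against 10.1 and 7.9 in WT with 5 of 6 higher, and Ngp and S100a8 were at 0 counts in both WT libraries. Megakaryocyte markers were lower, at 288 and 236 CPM in KO against 800 and 642 in WT with 4 of 5 called. Plasma and B cell markers summed to 51.7 and 56.8 CPM in KO LT-HSC against 188 and 128 in WT LT-HSC (1 of 6 higher, 3 lower), and to 5024 and 6687 in KO MPP against 2417 and 2869 in WT MPP (3 of 6 higher). T and NK cell markers summed to 8.9 and 10.2 CPM in KO LT-HSC against 67.7 and 68.4 in WT LT-HSC, with 2 of 2 tested lower. In MPP, granulocyte and monocyte markers summed to 1782 and 1760 CPM in KO against 870 and 857 in WT (4 of 5 tested higher), and erythroid markers to 1160 and 1032 in KO against 792 and 721 in WT (4 of 9 higher). Y-linked genes summed to at most 14.0 CPM in KO LT-HSC against at least 144 in WT LT-HSC, and to at most 5.83 in KO MPP against at least 166 in WT MPP, so sex and genotype cannot be told apart. The part of these differences in the results on mitoribosome genes was not tested, and in such bulk samples fewer cells of a type and less RNA per cell cannot be told apart.

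In LT-HSC, the KO libraries had more RNA of 6 mitoribosome genes, 5 of the large subunit and 1 of the small subunit, and no member was called lower. The 6 were Mrpl46, Mrpl43, Mrpl47, Mrpl15, Mrps14 and Mrpl13, with log2 fold changes (KO over WT) between 0.95 and 1.73. A gene was called at a Benjamini-Hochberg adjusted p under 0.05 in edgeR's quasi-likelihood test over all 15684 genes tested. The share of members called higher was 8.0%, against 22.5% of all genes tested, and the share called lower was 0%, against 10.9% of all genes. The median log2 fold change was 0.23 over the members and 0.03 over all genes, with 52 members above 0 and 23 below.

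Mrpl46 encodes a mitochondria-specific protein of the central protuberance, the crest of the large subunit that faces the small subunit. The gene (ENSMUSG00000030612) lies on the minus strand at chr7:85920122-85928417 of the mm9 build. It had 111 and 108 counts in KO LT-HSC against 41 and 25 in WT LT-HSC. The means were 20.4 ± 0.413 normalized CPM in KO and 6.17 ± 1.91 in WT (SD, n = 2 each), a 3.32-fold difference (log2 fold change 1.73, SE 0.33, edgeR adjusted p = 0.0049). The groups did not overlap, and Mrpl46 was called higher under each of the 11 alternative settings. Its span overlaps that of Mrps11 on the opposite strand (chr7:85928005-85937875), whose product is a small-subunit protein of bacterial descent. Whether counting used strand is not stated, so reads in the overlap cannot be assigned within the pair, and the same holds for the other overlapping genes named here. Mrps11 had 98 and 104 counts in KO libraries against 88 and 58 in WT libraries (log2 fold change 0.47, edgeR adjusted p = 0.260).

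The start regions of this pair are shown because they face each other, so that the 300-base windows around the RefSeq starts (250 bases before and 50 after, GRCm38.p6) share 141 bases. The Mrpl46 window is chr7:78783040-78783339 on the minus strand, and the Mrps11 window is chr7:78782881-78783180 on the plus strand. Capitals mark a match to the YY1 motif AAGATGGCG, read on the other strand. The Mrpl46 window held no match to any of the 4 motifs searched.
Mrpl46: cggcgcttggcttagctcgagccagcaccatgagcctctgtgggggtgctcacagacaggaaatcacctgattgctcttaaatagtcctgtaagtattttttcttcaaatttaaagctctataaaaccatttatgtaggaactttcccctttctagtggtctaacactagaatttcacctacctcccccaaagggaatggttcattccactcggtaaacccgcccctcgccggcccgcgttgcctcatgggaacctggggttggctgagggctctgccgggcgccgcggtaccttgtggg
Mrps11: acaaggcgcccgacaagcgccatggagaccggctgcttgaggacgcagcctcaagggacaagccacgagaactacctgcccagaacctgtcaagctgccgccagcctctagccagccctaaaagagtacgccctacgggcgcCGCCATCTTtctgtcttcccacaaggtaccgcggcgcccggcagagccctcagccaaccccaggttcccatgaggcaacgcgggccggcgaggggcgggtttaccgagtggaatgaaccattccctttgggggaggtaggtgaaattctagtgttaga

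Mrpl43 encodes a mitochondria-specific large-subunit protein; the gene (ENSMUSG00000025208) lies on the minus strand at chr19:45079504-45080932 (mm9), where it overlaps Peo1, the gene of the mitochondrial DNA helicase Twinkle. Mrpl43 had 65 and 66 counts in KO LT-HSC against 18 and 26 in WT LT-HSC. The KO libraries were close to each other and above both WT libraries, at 12.2 ± 0.616 against 4.15 ± 1.21 normalized CPM (SD, n = 2 each; log2 fold change 1.57, SE 0.38, edgeR adjusted p = 0.0138). The call was lost when either KO library was left out (edgeR adjusted p = 0.0982 without KO replicate 1 and 0.0921 without KO replicate 2). Peo1 had 154 and 183 counts in KO libraries against 162 and 201 in WT libraries (log2 fold change -0.10, edgeR adjusted p = 0.756). The Mrpl43 window in RefSeq (chr19:45006393-45006692 of GRCm38.p6, minus strand) is shown because it holds the GABP (ETS) motif CCGGAAG at 2 places, in capitals, which begin at positions 195 and 239 of the 300 bases.
Mrpl43: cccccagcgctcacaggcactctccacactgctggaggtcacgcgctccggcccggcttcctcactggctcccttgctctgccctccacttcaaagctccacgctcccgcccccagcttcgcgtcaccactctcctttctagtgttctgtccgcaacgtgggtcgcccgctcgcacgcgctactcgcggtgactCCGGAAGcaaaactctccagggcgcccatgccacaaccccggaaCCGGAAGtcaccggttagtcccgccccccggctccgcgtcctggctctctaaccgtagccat

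Mrpl47 is the mitochondrial homolog of bacterial L29, a protein at the exit of the tunnel through which the new peptide leaves the large subunit. The gene (ENSMUSG00000037531) lies on the minus strand at chr3:32624319-32636069 (mm9). It had 172 and 109 counts in KO LT-HSC against 66 and 54 in WT LT-HSC (log2 fold change 1.23, SE 0.30, edgeR adjusted p = 0.0150). The KO libraries were farther apart than the WT libraries, yet both were above them. Its overlapping neighbours did not pass the test: Actl6a had 368 and 251 counts in KO libraries against 466 and 297 in WT libraries (log2 fold change -0.30, edgeR adjusted p = 0.419). Ndufb5, a subunit of respiratory complex I, had 236 and 269 counts in KO libraries against 267 and 303 in WT libraries (log2 fold change -0.17, edgeR adjusted p = 0.524).

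Mrps14 is the small-subunit homolog of bacterial S14, from a gene (ENSMUSG00000058267) on the plus strand at chr1:162125346-162132301 (mm9). It had 173 and 123 counts in KO LT-HSC against 63 and 90 in WT LT-HSC, again with no overlap (log2 fold change 0.95, SE 0.29, edgeR adjusted p = 0.0363). Mrps14 was called under 7 of the 11 alternative settings, and not in DESeq2 or without the filter on low counts. The windows of Mrpl47 (chr3:32736706-32737005, minus strand) and Mrps14 (chr1:160194965-160195264, plus strand; both GRCm38.p6) are shown beside those of Mrpl46 and Mrpl43 because these members were called together, and neither held a match to the 4 motifs.
Mrpl47: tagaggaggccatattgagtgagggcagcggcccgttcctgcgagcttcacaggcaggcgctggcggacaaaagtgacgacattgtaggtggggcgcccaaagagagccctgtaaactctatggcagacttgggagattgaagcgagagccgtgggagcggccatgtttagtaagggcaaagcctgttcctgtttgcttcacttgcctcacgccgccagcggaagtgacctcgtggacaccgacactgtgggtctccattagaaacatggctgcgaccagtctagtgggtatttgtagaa
Mrps14: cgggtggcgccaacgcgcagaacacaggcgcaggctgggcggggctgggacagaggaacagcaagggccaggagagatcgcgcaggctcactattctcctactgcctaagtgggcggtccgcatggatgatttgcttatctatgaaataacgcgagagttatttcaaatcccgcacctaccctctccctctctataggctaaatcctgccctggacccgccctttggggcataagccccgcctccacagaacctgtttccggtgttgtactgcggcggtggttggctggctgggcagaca

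Mrpl13 and Mrpl15 complete the called genes, and both encode large-subunit proteins of bacterial descent. Mrpl13 (ENSMUSG00000022370, chr15:55365649-55389303, minus strand, mm9) had 237 and 193 counts in KO LT-HSC against 118 and 105 in WT LT-HSC (log2 fold change 0.95, SE 0.22, edgeR adjusted p = 0.0113). Its neighbour Mtbp, which overlaps it, had 166 and 177 counts in KO libraries against 144 and 134 in WT libraries (log2 fold change 0.31, edgeR adjusted p = 0.305). Mrpl15 (ENSMUSG00000033845, chr1:4763287-4775820, minus strand, mm9) had 324 and 237 counts in KO libraries against 188 and 89 in WT libraries (log2 fold change 1.02, SE 0.33, edgeR adjusted p = 0.0439). Mrpl15 was called under 7 of the 11 alternative settings, and not without the filter on low counts. The WT libraries of Mrpl15 were farther apart than those of the other called members, and its call was lost without WT replicate 2 (edgeR adjusted p = 0.0751).

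The calls rested unevenly on the libraries. Without KO replicate 1 only Mrpl46 of the 75 was called, while 12.1% of all genes were higher and 2.36% lower. Without WT replicate 1 there were 13 members higher, beside 21.9% of all genes higher and 10.3% lower. Without WT replicate 2 there were 9 higher and 4 lower, beside 25.1% and 15.2% of all genes; the lower ones, named like others outside the naming rule after their values were seen, were Mrpl20, Mrpl40, Mrps9 and Mrps12. Mrps9 was nearest to the threshold on the lower side, at 143 and 150 counts in the KO libraries against 269 and 195 in the WT libraries (log2 fold change -0.66, SE 0.22, edgeR adjusted p = 0.0526). A background level was taken from 160 genes over 100 kb with at most 3 counts over the WT LT-HSC libraries together. Its median was 0.292 and 0.256 counts per kb in the KO libraries. In WT it was 0 and 0.00664, but the choice of genes keeps the WT level near 0, so this contrast is not a test. The KO level amounted to between 0.597% and 3.01% of the KO counts of the 6 called members. With it subtracted, 5 of the 6 stayed called and Mrpl15 had an edgeR adjusted p of 0.0528. Of all genes, 10.5% were then higher and 7.11% lower, against 22.5% and 10.9% as first computed.

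**Figure D1:**
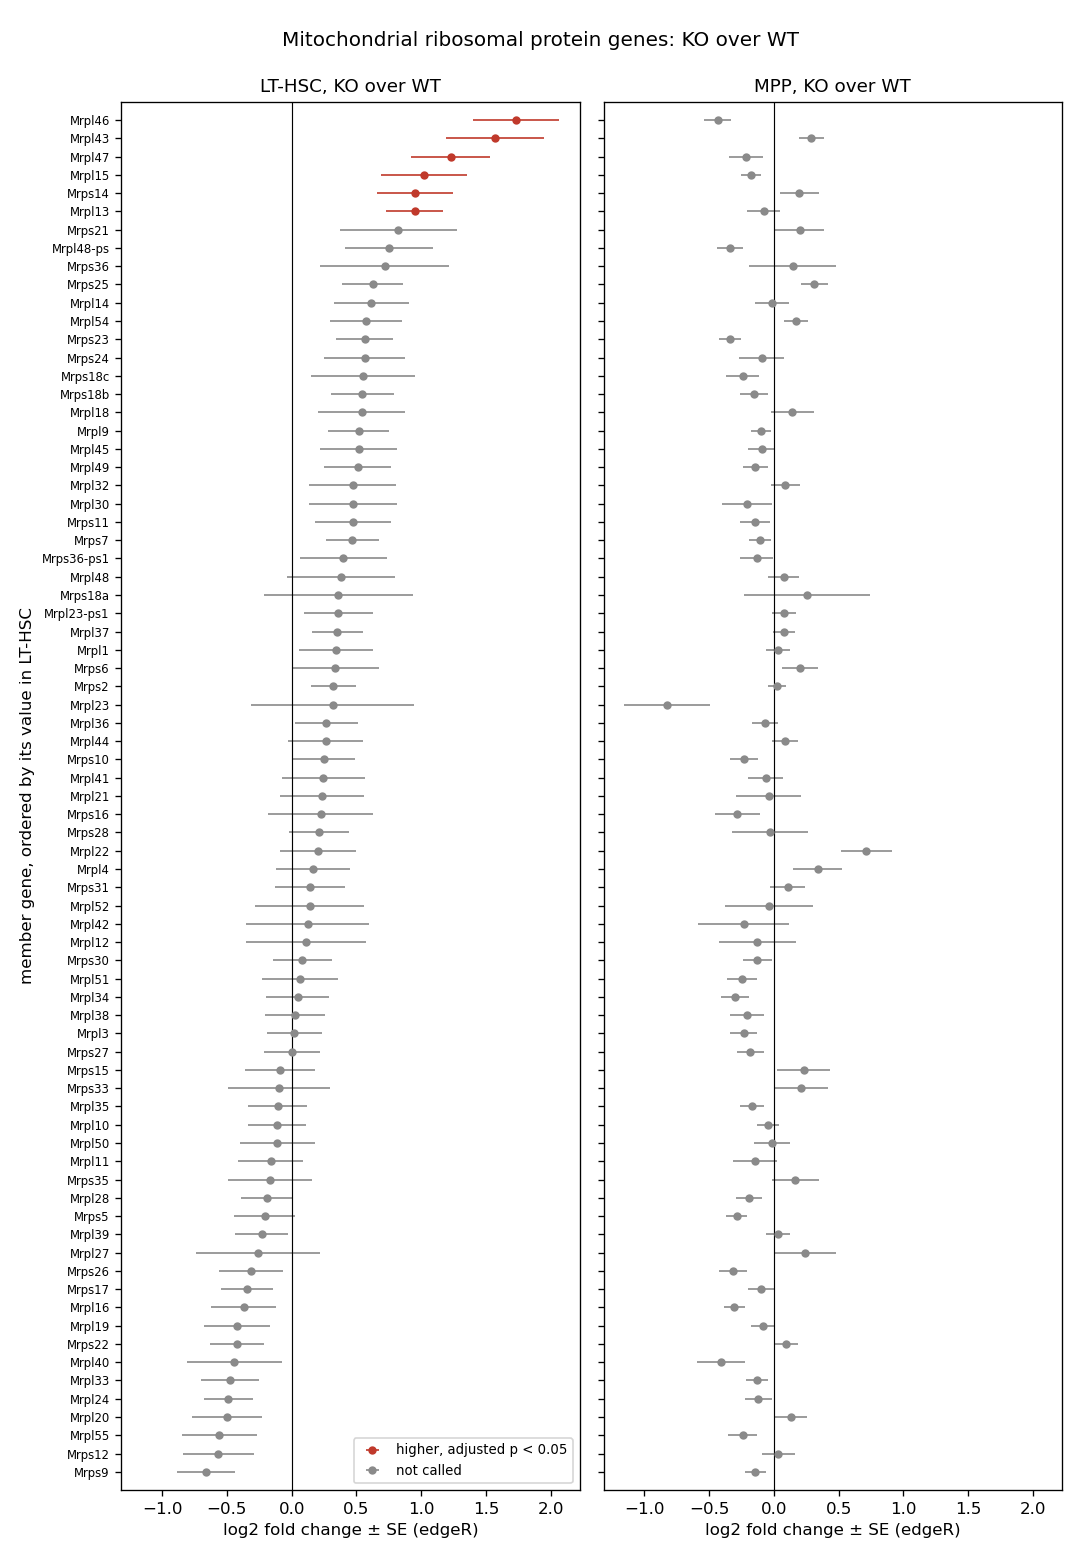
Log2 fold change, KO over WT, with its standard error (edgeR) for each of the 75 members in LT-HSC (left) and MPP (right), n = 2 libraries a group, ordered by the LT-HSC value; red points passed an adjusted p under 0.05. The LT-HSC values run between -0.66 and 1.73 with 6 red points, and the MPP values have none.

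The members described whatever their result did not pass the test in LT-HSC. Mrps12, the homolog of bacterial S12 at the decoding site, had 85 and 84 counts in KO LT-HSC against 150 and 101 in WT LT-HSC (log2 fold change -0.57, SE 0.28, edgeR adjusted p = 0.152). Mrpl12 is the stalk protein that binds translation factors, and it had 758 and 322 counts in KO libraries against 725 and 277 in WT libraries (log2 fold change 0.11, SE 0.46, edgeR adjusted p = 0.879). Replicates of Mrpl12 differed by more than the genotypes did. Mrps18a, Mrps30 and Mrps36 had log2 fold changes of 0.36, 0.08 and 0.72, with edgeR adjusted p-values of 0.670, 0.811 and 0.309. Mrpl54, the member nearest to Tet1 on chromosome 10 at a distance of 18.37 Mb, had 97 and 107 counts in KO libraries against 61 and 76 in WT libraries (log2 fold change 0.58, SE 0.28, edgeR adjusted p = 0.147).

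Counted by role, 4 of 44 members of bacterial descent and 2 of 27 mitochondria-specific members were called higher in KO LT-HSC (9.09% and 7.41%, against 22.5% of all genes), with medians of 0.22 and 0.14 on the log2 scale. The 4 stalk proteins had none, the 7 tunnel-exit proteins had Mrpl47 and the 7 central-protuberance proteins had Mrpl46. Libraries of the groups did not overlap in normalized CPM for 27 members that were higher and 11 that were lower in KO LT-HSC, which is 36.0% and 14.7% of the members against 34.5% and 31.1% of all genes. When the log2 fold changes were scaled to a median of 0 over abundant genes, the median of all genes moved to 0.21 and that of the members to 0.42. In that scaling 9 members were called higher, the additional ones being Mrps7, Mrps23 and Mrps25, beside 25.95% of all genes higher and 6.01% lower. Of all calls in that scaling, 81.2% were higher, against 67.3% as first computed.

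**Figure D2:**
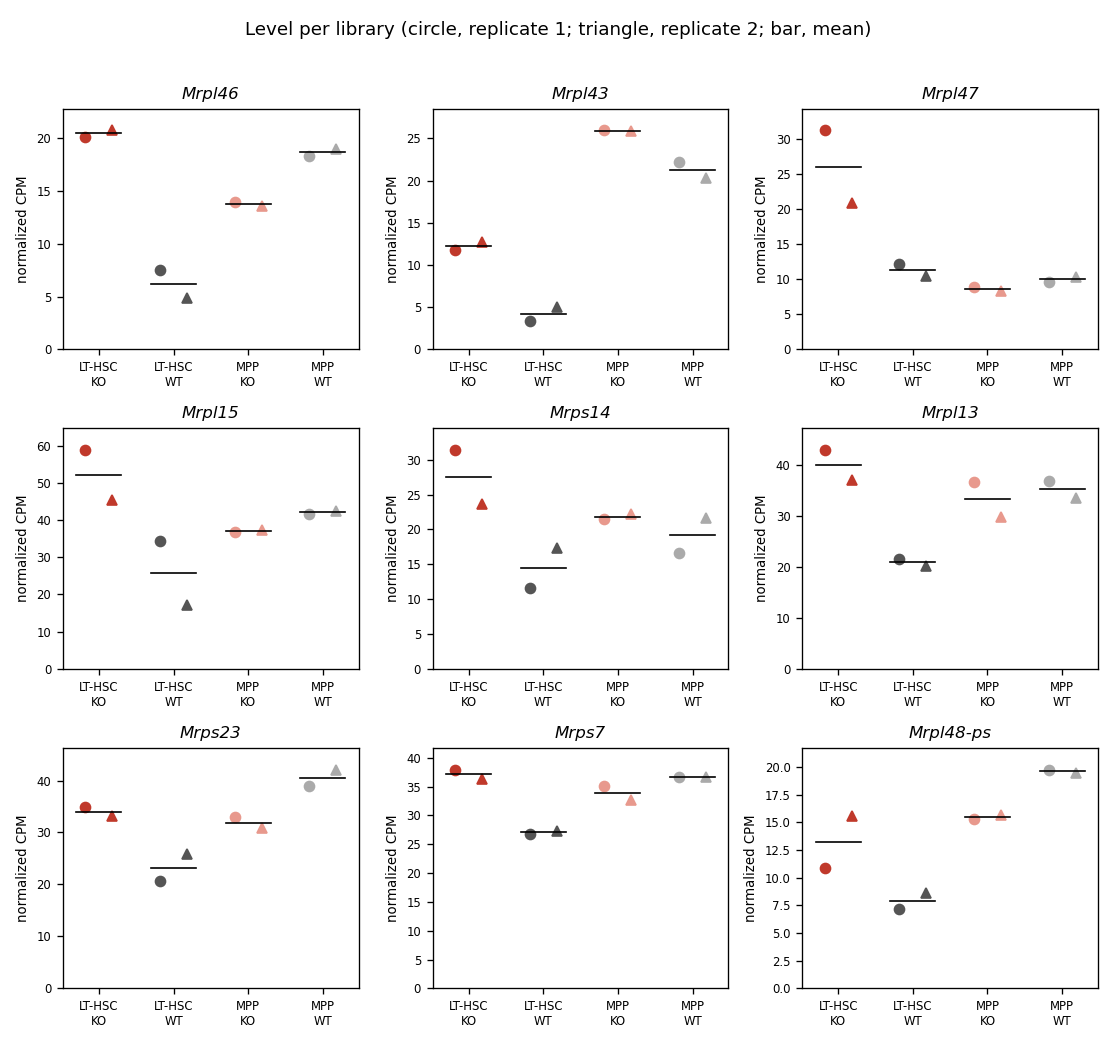
Normalized CPM in each library (circle, replicate 1; triangle, replicate 2; bar, mean of n = 2) for the 6 members called in LT-HSC and for Mrps23, Mrps7 and Mrpl48-ps, with KO beside WT for LT-HSC and then for MPP along the axis. Both LT-HSC KO libraries lie above both LT-HSC WT libraries in every panel, and no panel shows a called difference in MPP.

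Other genes of mitochondrial translation were called in both directions in KO LT-HSC. Of 23 genes for mitoribosome assembly, 4 were higher and 1 lower (17.4% and 4.35%, against 22.5% and 10.9% of all genes), with a median log2 fold change of -0.02. Fastkd2, an RNA-binding protein needed for the large-subunit rRNA, had 185 and 181 counts in KO libraries against 35 and 64 in WT libraries (log2 fold change 1.88, SE 0.31, edgeR adjusted p = 0.00275) and was called in each of the 4 fits that left out 1 library. Tfb1m, which methylates the small-subunit rRNA, had 119 and 114 counts in KO libraries against 55 and 51 in WT libraries (log2 fold change 1.14, edgeR adjusted p = 0.0119). Mterfd2 had a log2 fold change of 1.07 (edgeR adjusted p = 0.0304). Eral1, a GTPase that binds the small-subunit rRNA, was lower at 72 and 70 counts in KO libraries against 149 and 115 in WT libraries (log2 fold change -0.89, edgeR adjusted p = 0.0299). Tfb1m, Mterfd2 and Eral1 were not called once either KO library was left out.

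Of 19 mitochondrial aminoacyl-tRNA synthetases, which charge the tRNAs the mitoribosome reads, 6 were higher and 1 lower (31.6% and 5.26%, against 22.5% and 10.9% of all genes), with a median of 0.12. Rars2 had 300 and 209 counts in KO LT-HSC against 131 and 116 in WT LT-HSC (log2 fold change 1.04, edgeR adjusted p = 0.0101), and Mars2 had 59 and 78 in KO against 25 and 30 in WT (log2 fold change 1.32, edgeR adjusted p = 0.0246). Nars2 was higher (log2 fold change 0.94, edgeR adjusted p = 0.0428) and Ears2 lower (log2 fold change -1.01, edgeR adjusted p = 0.0391). Without KO replicate 1 none of the 19 was called. Mtfmt, which formylates the initiator methionyl-tRNA, was the only one of 15 translation factors called, at 85 and 89 counts in KO libraries against 180 and 150 in WT libraries (log2 fold change -0.92, SE 0.23, edgeR adjusted p = 0.0172), and it was not called without either KO library.

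Among 77 tested genes for nuclear-encoded oxidative phosphorylation subunits, 7 were higher and 1 lower in KO LT-HSC (9.09% and 1.3%, against 22.5% and 10.9% of all genes), with a median of -0.04. Cox6b2 had 187 and 131 counts in KO libraries against 43 and 51 in WT libraries (log2 fold change 1.76, edgeR adjusted p = 0.00264). Ndufa1, a subunit of complex I, was the lower one at 55 and 45 counts in KO libraries against 193 and 114 in WT libraries (log2 fold change -1.61, edgeR adjusted p = 0.00574). Of 11 regulators of mitochondrial biogenesis, the nuclear receptor Esrra and the transcription factor Mycn were lower (log2 fold changes -0.88 and -0.67) and the coactivator Ppargc1b was higher (0.67), with edgeR adjusted p-values of 0.0442, 0.0223 and 0.0493. Esrra and Mycn were not called without either KO library, and Ppargc1b was not called in any of the 4 fits without 1 library. Of 74 cytoplasmic ribosomal protein genes only Rpl22 was called, lower (log2 fold change -0.55, edgeR adjusted p = 0.0458), and the list's median was -0.11. Without WT replicate 1, 1 gene of that list was higher and 18 were lower, and without WT replicate 2, 12 were higher and 3 lower. The medians of the assembly, oxidative phosphorylation and cytoplasmic ribosome lists turned positive, to 0.16, 0.15 and 0.07, under the scaling to abundant genes, which shifts the log2 fold change of every gene upward by nearly the same amount.

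In MPP, no mitoribosome gene was called in KO against WT, in either direction, in the fit without replicate numbers. With the replicate number as a block, 5 members were higher and 17 lower, beside 23.7% and 24.8% of all genes. The labels do not say that the numbers pair the libraries, so the values below are those without the block. Among all 14902 genes tested, 4.74% were called higher and 2.46% lower. At an unadjusted p under 0.05 there were 10 members in edgeR's test and 1 in DESeq2's, which also called 0. The median log2 fold change was -0.09 over the members and -0.01 over all genes, with 27 members above 0 and 48 below. Libraries did not overlap for 9 members that were higher in KO and 27 that were lower, out of 75, and for 26.9% and 28.3% of all genes. When either WT library was left out, no gene of the whole table was called.

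The members called in LT-HSC had other values in MPP. Mrpl46 had 164 and 161 counts in KO MPP against 218 and 227 in WT MPP (log2 fold change -0.43, SE 0.10, edgeR adjusted p = 0.0747), the lowest adjusted p of any member there. Mrpl43 had 306 and 306 counts in KO libraries against 265 and 243 in WT libraries (log2 fold change 0.29, edgeR adjusted p = 0.150). Mrpl47, Mrpl13, Mrpl15 and Mrps14 had log2 fold changes of -0.22, -0.08, -0.18 and 0.20, none of which passed the test. Mrps23, a mitochondria-specific small-subunit protein, had 388 and 365 counts in KO MPP against 464 and 503 in WT MPP (log2 fold change -0.34, SE 0.09, edgeR adjusted p = 0.0854). Mrps12, Mrpl12, Mrps18a, Mrps30, Mrps36 and Mrpl54 lay between -0.13 and 0.26 on the log2 scale.

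Mrpl23, which encodes another protein at the tunnel exit, had 32 and 63 counts in KO MPP against 83 and 88 in WT MPP (log2 fold change -0.82, SE 0.33, edgeR adjusted p = 0.197). The authors' deposited table gives it a log2 fold change of -0.85 with an FDR of 0.0484, the 1 member under 0.05 there in MPP. By the same FDR, 1006 of all 18904 genes listed for MPP were higher and 487 lower. For LT-HSC, the authors' deposited table puts the same 6 members under 0.05 as were called here, all higher in KO. Of all 19685 genes listed for LT-HSC, it puts 5418 higher and 1668 lower. Both sets of calls come from the same counts, so their overlap is not independent. Among the pathway lists, only Mycn was called in MPP, higher at 233 and 217 counts in KO libraries against 117 and 104 in WT libraries (log2 fold change 1.05, SE 0.12, edgeR adjusted p = 0.0155), and it was not called in any of the 4 fits without 1 library.

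The difference between the populations in the effect of genotype was tested directly, as the LT-HSC log2 fold change minus the MPP one in a fit of all 8 libraries. It was above 0 for 7 members and below 0 for none at an edgeR adjusted p under 0.05, 9.33% of the members against 13.6% of all 16551 genes above 0 and 8.5% below. Mrpl46 had the largest difference, 2.16 (SE 0.29, edgeR adjusted p = 0.00354), and was called in each of the 14 alternatives. Mrpl47 differed by 1.43 (SE 0.32, edgeR adjusted p = 0.0175), Mrpl43 by 1.28 (SE 0.29, edgeR adjusted p = 0.0182) and Mrpl13 by 1.02 (SE 0.22, edgeR adjusted p = 0.0164). These 4 were also called in LT-HSC alone, whereas Mrpl15 and Mrps14 did not pass the test of the difference.

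The other 3 genes passed it without a call in either population. Mrps23 (chr11:88017890-88025009, plus strand, mm9) had 192 and 173 counts in KO LT-HSC against 113 and 134 in WT LT-HSC, so its KO libraries were the higher ones in LT-HSC and the lower ones in MPP, and the difference was 0.90 (SE 0.21, edgeR adjusted p = 0.0193). The pseudogene Mrpl48-ps (chr4:88245079-88245714, minus strand, mm9) had 60 and 81 counts in KO LT-HSC against 39 and 45 in WT LT-HSC, and 181 and 185 in KO MPP against 236 and 233 in WT MPP, a difference of 1.08 (SE 0.30, edgeR adjusted p = 0.0350). Mrps7, the homolog of bacterial S7 in the head of the small subunit (chr11:115465239-115469350, plus strand, mm9), had 209 and 189 counts in KO LT-HSC against 146 and 142 in WT LT-HSC, and 414 and 386 in KO MPP against 437 and 437 in WT MPP. Its difference of 0.57 (SE 0.17, edgeR adjusted p = 0.0493) was called in 4 of the 14 alternatives and in none that left out a library. When 1 MPP library was left out, between 1 and 2 of the 7 were called.

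WT LT-HSC and WT MPP were compared to ask how the members differ between the populations without the mutation. This comparison and that of KO with WT LT-HSC share the WT LT-HSC libraries, and population, number of sorted cells and depth cannot be told apart. Markers of other cells also differed: plasma and B cell markers summed to 188 and 128 CPM in WT LT-HSC against 2417 and 2869 in WT MPP (6 of 6 lower), and granulocyte and monocyte markers to 10.1 and 7.9 in WT LT-HSC against 870 and 857 in WT MPP (5 of 5 tested lower). Megakaryocyte markers summed to 800 and 642 CPM in WT LT-HSC against 112 and 92.4 in WT MPP (4 of 5 higher), and the part of these differences in the members' values was not tested. Of the 75 members, 1 was higher and 13 were lower in WT LT-HSC than in WT MPP, 1.33% and 17.3% of the members against 17.4% and 16.9% of all 14660 genes tested. The median log2 fold change, WT LT-HSC over WT MPP, was -0.16 over the members and 0.02 over all genes. By subunit, 1 large-subunit gene was higher and 10 of 46 were lower, and 1 of 25 small-subunit genes, Mrps23, was lower. Genes of mitoribosome proteins with other names lie outside the naming rule and these tallies. Of those, Chchd1 was lower (log2 fold change -0.64, edgeR adjusted p = 0.0405) and Ptcd3 higher (0.59, edgeR adjusted p = 0.0393). Neither was called once either MPP library was left out. By descent, 4 of 44 members with a bacterial homolog and 7 of 27 mitochondria-specific ones were lower. Libraries did not overlap for 10 members that were higher and 32 that were lower in WT LT-HSC, out of 75, and for 32.7% and 38.3% of all genes.

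The genes that were lower were led by Mrpl43, with 18 and 26 counts in WT LT-HSC against 265 and 243 in WT MPP. Its means were 4.15 ± 1.21 normalized CPM in WT LT-HSC and 21.3 ± 1.32 in WT MPP (SD, n = 2 each; log2 fold change -2.31, SE 0.26, edgeR adjusted p = 0.00195). Mrpl46 followed with 41 and 25 counts in WT LT-HSC against 218 and 227 in WT MPP (log2 fold change -1.53, SE 0.27, edgeR adjusted p = 0.00893). Both had their lowest mean CPM of the 4 groups in WT LT-HSC. Mrpl50, a mitochondria-specific large-subunit protein, had 77 and 108 counts in WT LT-HSC against 404 and 482 in WT MPP (log2 fold change -1.04, SE 0.22, edgeR adjusted p = 0.0168). Mrpl9, the homolog of bacterial L9, had 102 and 135 counts in WT LT-HSC against 464 and 478 in WT MPP (log2 fold change -0.77, SE 0.19, edgeR adjusted p = 0.0260). The other lower genes were Mrpl23, Mrps23, Mrpl49, Mrpl54, Mrpl13, Mrpl51, Mrpl36 and the pseudogenes Mrpl48-ps and Mrpl23-ps1, with log2 fold changes between -1.26 and -0.60.

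Mrpl22, the homolog of a bacterial protein that lines the exit tunnel, was the 1 higher gene (chr11:57985163-57993067, plus strand, mm9), with 69 and 57 counts in WT LT-HSC against 60 and 76 in WT MPP. After normalization its libraries did not overlap, at 11.8 ± 1.18 CPM in WT LT-HSC against 5.70 ± 0.942 in WT MPP (SD, n = 2 each). The log2 fold change was 1.11 (SE 0.26, edgeR adjusted p = 0.0230), and between 0.93 and 1.28 with 1 library left out. Mrpl22 was not called once either MPP library was left out. In DESeq2, and without WT MPP replicate 2, Mrpl52 was called higher and Mrpl22 was not.

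**Figure D3:**
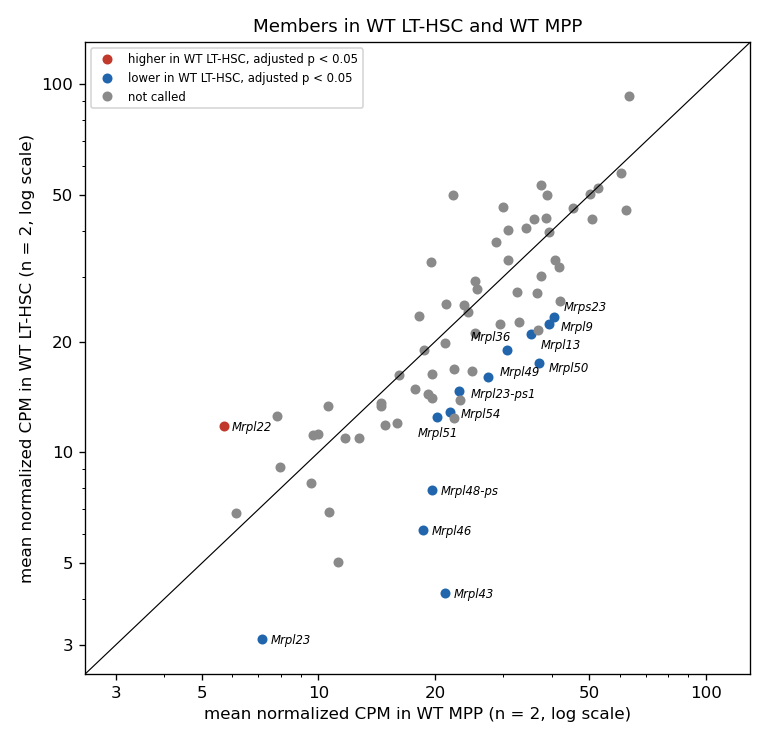
Mean normalized CPM of each member in WT LT-HSC (vertical) against WT MPP (horizontal), n = 2 libraries each, on log scales, with the line of equal values; red marks the member called higher in WT LT-HSC and blue those called lower. Mrpl43 lies farthest below the line, at 4.15 CPM in WT LT-HSC and 21.3 in WT MPP.

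Without WT MPP replicate 1 there were 2 members higher and 4 lower, beside 8.96% and 9.0% of all genes. Without WT MPP replicate 2 there were 1 higher and 3 lower, beside 8.86% and 8.09% of all genes, so calls became fewer over all genes as well. Without WT LT-HSC replicate 2 there were 11 higher and 18 lower, beside 22.1% and 24.2% of all genes. Mrpl43, Mrpl46 and Mrpl48-ps were called under each of the 11 alternatives. The members described whatever their result did not pass the test, except Mrpl54: Mrps12 had a log2 fold change of 0.43 (edgeR adjusted p = 0.201), Mrpl12 of 0.62 (edgeR adjusted p = 0.310) and Mrps36 of 0.74 (edgeR adjusted p = 0.273). Mrps18a and Mrps30 had values of 0.27 and -0.24.

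The 3 pseudogenes are near-copies of a member's coding sequence, and so their counts and those of the parent gene may be exchanged in mapping. In GENCODE M21 transcripts (GRCm38), the 438 coding bases of Mrpl23 are identical to a stretch of Mrpl23-ps1, the 633 coding bases of Mrpl48 differ from Mrpl48-ps at 12 positions, and the 306 of Mrps36 differ from Mrps36-ps1 at 2. The split of counts within each of these pairs is uncertain. Mrpl23 had 14 and 19 counts in WT LT-HSC against 83 and 88 in WT MPP, and Mrpl23-ps1 had 78 and 78 in WT LT-HSC against 282 and 270 in WT MPP, so that most counts of that pair were assigned to the pseudogene on chromosome 2. Mrpl48-ps had 39 and 45 counts in WT LT-HSC against 236 and 233 in WT MPP (log2 fold change -1.26, SE 0.21, edgeR adjusted p = 0.00701).

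The first 90 coding bases of the Mrpl23 pair and bases 360 to 449 of the Mrpl48 pair, where 7 of the 12 differences fall, show how much or how little distinguishes reads of 50 bp from the copies. Capitals mark bases that differ within the pair.
Mrpl23: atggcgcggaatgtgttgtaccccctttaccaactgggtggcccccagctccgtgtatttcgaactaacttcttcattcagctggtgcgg
Mrpl23-ps1: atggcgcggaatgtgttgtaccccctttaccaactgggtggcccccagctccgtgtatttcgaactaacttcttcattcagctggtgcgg
Mrpl48: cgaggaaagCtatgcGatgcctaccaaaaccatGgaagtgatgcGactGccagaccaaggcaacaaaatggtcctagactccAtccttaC
Mrpl48-ps: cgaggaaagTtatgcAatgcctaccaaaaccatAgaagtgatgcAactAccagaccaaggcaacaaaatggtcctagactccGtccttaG

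The pathway lists in the WT comparison were also called in both directions, beside 17.4% of all 14660 genes tested higher and 16.9% lower. Fastkd2 had 35 and 64 counts in WT LT-HSC against 359 and 391 in WT MPP (log2 fold change -1.70, SE 0.29, edgeR adjusted p = 0.00793). Among the 23 assembly genes it was 1 of 2 that were lower, with Tfb1m, while Rpusd3 and Afg3l2 were higher. Mars2 had 25 and 30 counts in WT LT-HSC against 190 and 199 in WT MPP (log2 fold change -1.60, edgeR adjusted p = 0.00491), and Cars2, also a tRNA synthetase, was higher. Of the 15 translation factors, Taco1, an activator of the translation of a cytochrome oxidase subunit, was lower (log2 fold change -1.31, edgeR adjusted p = 0.0171) and Mtfmt higher (0.97, edgeR adjusted p = 0.00975).

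Of the 11 biogenesis regulators, 1 was higher and 2 were lower, beside 17.4% and 16.9% of all genes. Mycn was higher in WT LT-HSC at 330 and 391 counts against 117 and 104 in WT MPP (log2 fold change 2.92, SE 0.18, edgeR adjusted p = 0.000224). Gabpa, the DNA-binding subunit of GABP, was lower at 428 and 449 counts in WT LT-HSC against 1825 and 1983 in WT MPP (log2 fold change -0.90, edgeR adjusted p = 0.00412). Myc was lower too, at 1569 and 1551 counts in WT LT-HSC against 5329 and 5007 in WT MPP (log2 fold change -0.51, edgeR adjusted p = 0.0216), and was not called once either MPP library was left out. Of 79 oxidative phosphorylation genes 7 were lower and 0 higher, beside 16.9% and 17.4% of all genes, with a median of 0.11. Of 74 cytoplasmic ribosomal protein genes Rpl12 alone was called, higher, with a median of 0.17. Fastkd2, Mars2, Mycn and Gabpa were called in each of the 4 fits without 1 library. Tfb1m, Rpusd3, Afg3l2, Cars2, Taco1, Mtfmt and Rpl12 were not called once either MPP library was left out. The oxidative phosphorylation calls were more often higher than lower without LT-HSC replicate 2 and without MPP replicate 1, so their direction depended on the library left out.

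Levels were set side by side between genes as normalized CPM per kb of transcript, for the 74 members with a transcript length. The length was that of 1 transcript per gene, chosen by annotation rank and then by length, so the order of levels depends on that choice. It was 6.073 kb for Mrps25, 4.285 for Mrpl48, 3.364 for Mrpl47, 1.398 for Mrpl43 and 0.418 for Mrpl52. The median level was 13.8 in WT LT-HSC and 17.4 in WT MPP. The highest level in WT LT-HSC was that of Mrpl52, at 164 and 75.6 CPM per kb, followed by Mrps28 at 58.1 and 88.6 and Mrpl12 at 101 and 40.5. These 3 also had the highest levels in WT MPP, with Mrps28 at 57.9 and 96.1, Mrpl52 at 62.6 and 43.7 and Mrpl12 at 58.8 and 37.5. Mrpl52 was above Mrpl12 in every WT library. Mrps28 was the lowest of the 3 in the libraries numbered 1 and the highest in those numbered 2. At the low end in WT LT-HSC were Mrpl43, Mrps25 and Mrpl48 at mean levels of 2.97, 2.78 and 2.55 CPM per kb, and in WT MPP Mrps25, Mrpl47 and Mrpl48 at 3.70, 2.96 and 2.73. Over the 74 genes the levels in WT LT-HSC and WT MPP had a Spearman correlation of 0.87, given as a description, since all of them come from the same 4 libraries. Mrps25 is 1 of 5 members (with Mrpl23, Mrpl23-ps1, Mrps18b and Mrps36-ps1) in which over 50% of 50-base windows also occur in another gene's transcripts, so low levels there are uncertain.

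The difference between the libraries numbered 1 and 2 had the same sign in all 4 groups for 44% of the members, 20 higher in replicate 1 and 13 in replicate 2, against 51.2% of 11760 genes with a mean above 50 counts. Values of 2 such members show it. Mrps18a had 118 and 36 counts in KO LT-HSC, 85 and 35 in WT LT-HSC, 188 and 85 in KO MPP and 156 and 75 in WT MPP. Mrps36 had 150 and 72 counts in KO LT-HSC, 100 and 35 in WT LT-HSC, 131 and 73 in KO MPP and 111 and 76 in WT MPP. In each of these groups the library numbered 1 was the higher, as it was for Mrpl12 and Mrpl52.

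**Figure D4:**
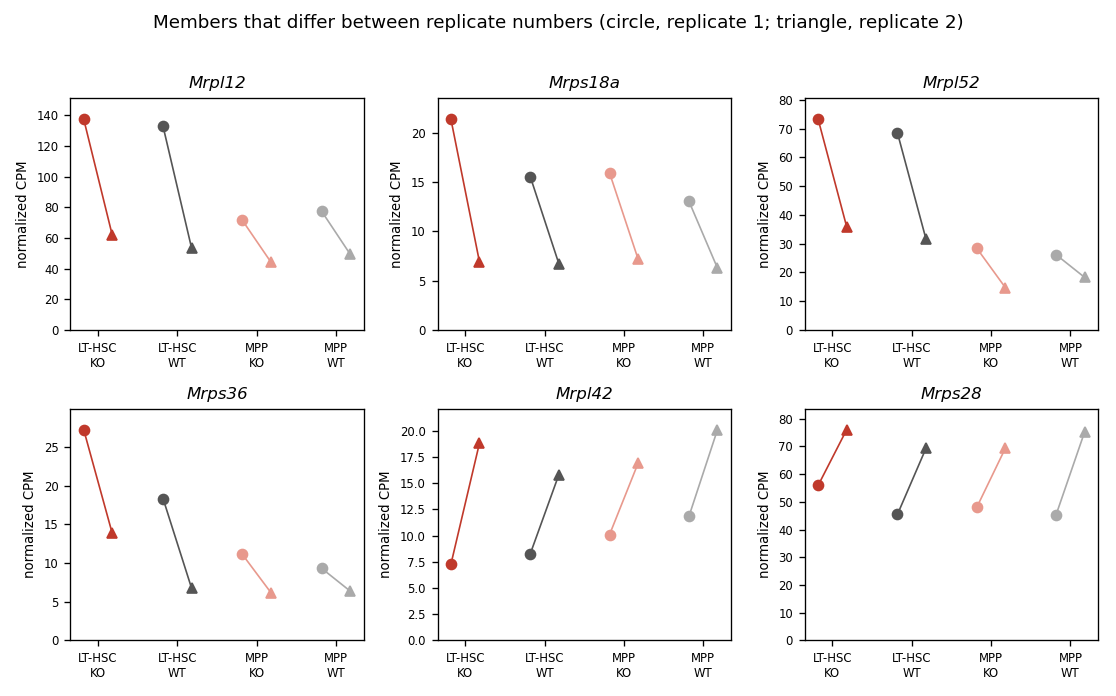
Normalized CPM in each library (circle, replicate 1; triangle, replicate 2, joined within a group) for 6 members, chosen after their values were seen for a large difference between replicate numbers, with KO beside WT for LT-HSC and then for MPP. Mrpl12, Mrps18a, Mrpl52 and Mrps36 are higher in replicate 1 of each group, and Mrpl42 and Mrps28 are higher in replicate 2.

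Position and promoter letters did not enter the rule. The members lie on 17 chromosomes, with gene spans between 0.588 and 121.8 kb and a median of 7.81 kb. A gene in the opposite direction starts within 1000 bp of the start of 29 members (38.7%, against 16% of all 20696 listed genes). Another listed gene overlaps 21 members (28%, against 18% of all listed genes), 19 of them only on the opposite strand. RefSeq promoter windows were found for 64 of the 75. The GABP (ETS) motif CCGGAAG, on either strand, occurred in 22 of these, or 34.4%, against 17.1% of the 10832 windows of genes in both tables. The NRF1 motif, GCGC and TGCGC with any 1 base between them, occurred in 11 (17.2% against 9.75%), the YY1 motif AAGATGGCG in 8 (12.5% against 2.94%), and the E-box CACGTG in 4 (6.25% against 11.1%). NRF1 and GABP are known as activators of nuclear genes for mitochondrial proteins. Of the 6 members called in LT-HSC, 4 had a window, and Mrpl43 alone among them held a match. Such a match describes the letters in the window only.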

How the data were processed

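Poly(A) RNA of sorted mouse LT-HSC and MPP was sequenced as 50 bp paired-end reads, per the labels' protocols. The submitters' processing notes name CASAVA, TopHat and the mm9 build without versions; the read counter, annotation and strand setting are not stated in the labels. The authors deposited raw counts per gene and library, with a log2 fold change, a log2 mean CPM, a likelihood ratio (a score) and a p-value and FDR for KO against WT, per the file headers. Count columns were matched to libraries by genotype and replicate number (0 columns unmatched).

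Counts were filtered with filterByExpr, scaled by TMM and tested over all genes with edgeR 4.0.16 (glmQLFit, glmQLFTest; limma 3.58.1, R 4.3.3), with Benjamini-Hochberg adjustment and a threshold of 0.05, in a fit of 4 libraries per comparison and of 8 for the difference between populations. The script was tested on simulated data. Depth is the total count per library, and low members rest on few counts. Alternatives were RLE scaling, DESeq2 1.42.0, no filter, scaling to abundant genes (mean log2 CPM over 6), a replicate block, 1 fit of all libraries, each library left out, and members without overlapping genes. Subtraction of background counts from the LT-HSC libraries was added after seeing the data. It removed gene span times the median count per kb of genes over 100 kb with at most 3 counts in WT LT-HSC. Where a library is left out, its group has 1 sample, assumed to vary like the others.

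Genes named were, per comparison, called members (at most 6 a direction by size of change, mean of 20 or more normalized counts), members called in the difference test, the 3 highest and 3 lowest per length, Mrps12, Mrpl12, Mrps18a, Mrps30, Mrps36 and the member nearest to Tet1, and at most 4 called genes per pathway list. The members, lists and tests were chosen with earlier results of these data known. Sequences are from RefSeq (GRCm38.p6) and GENCODE M21 (GRCm38), read with Python 3.11.15 and Biopython 1.88; gene coordinates of the files are mm9.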

Additional observations from a re-analysis of the deposited data

Results flagged for a closer look

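For 7 members the difference between KO and WT was not the same in LT-HSC as in MPP, by edgeR's test of that difference itself over all 8 libraries. The log2 fold change in LT-HSC minus that in MPP was 2.16 for Mrpl46 (edgeR adjusted p = 0.00354), 1.43 for Mrpl47 (edgeR adjusted p = 0.0175), 1.28 for Mrpl43 (edgeR adjusted p = 0.0182), 1.08 for Mrpl48-ps (edgeR adjusted p = 0.0350), 1.02 for Mrpl13 (edgeR adjusted p = 0.0164), 0.90 for Mrps23 (edgeR adjusted p = 0.0193) and 0.57 for Mrps7 (edgeR adjusted p = 0.0493). Mrpl46 was higher in both KO LT-HSC libraries and lower in both KO MPP libraries than in WT, as were Mrps23 and Mrpl48-ps. Mrpl43 was higher in both KO libraries of each population.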

How the results depend on the processing

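No named member's value that was called as first computed changed sign under the alternatives run, but counts of calls moved. Some values not called at first did change sign. With 1 library left out in LT-HSC, the log2 fold change of Mrpl12 ran between -0.62 and 0.92, and that of Mrps18a between -0.72 and 1.09. In KO against WT LT-HSC, 6 members were higher and 0 lower; leaving out 1 library at a time gave 1 to 13 higher and 0 to 4 lower, the fit of all 8 libraries gave 16 higher and 5 lower, and RLE scaling added 1 lower member, Mrps9. In KO against WT MPP, leaving out 1 library at a time gave 0 members higher and 0 lower. For WT LT-HSC against WT MPP, with 1 member higher and 13 lower, leaving out 1 library gave 1 to 11 higher and 3 to 20 lower, DESeq2 gave 8 lower, and the fit of all 8 libraries gave 2 higher and 20 lower. The 7 members with a difference between populations became 11 under scaling to abundant genes, all above 0, beside 17.0% of all genes above 0 and 5.23% below. Their number also moved when 1 library was left out, and the difference of Mrpl46 then ran between 1.87 and 2.51. Over all genes in LT-HSC, subtracting background counts gave 1508 higher and 1017 lower of 14299, against 3529 and 1717 of 15684; in MPP, 707 higher and 366 lower became 397 and 178 with no filter, 352 and 148 in the fit of all 8 libraries and 0 without either WT library. The cause of these shifts was not tested.

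Replicate numbers were shared by the groups, with only 2 pairs per comparison, and the deviations of libraries 1 and 2 correlated at 0.571 between KO and WT LT-HSC and at 0.787 between KO and WT MPP over 11760 genes with a mean over 50 counts; nothing else says that the numbers pair the libraries. With the replicate block, 21 members were higher and 6 lower in KO LT-HSC, 5 higher and 17 lower in KO MPP, 10 higher and 21 lower in WT LT-HSC against WT MPP, and 18 differed between populations, 14 above 0 and 4 below. Over all genes the block gave 4815 higher and 4009 lower in LT-HSC (30.7% and 25.6%) and 3536 and 3698 in MPP (23.7% and 24.8%). Between the WT populations it gave 4038 and 3781 (27.5% and 25.8%). For the difference between populations it gave 3632 above 0 and 3265 below (21.9% and 19.7%).

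Among named members' values, 385 kept their direction and side of the threshold, 77 lost a call, 15 gained one and 22 others moved. Depth limits low members most: Mrpl23 had 9 counts in 1 KO LT-HSC library.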
